A study of Mus musculus with 4 samples.

Results

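The genes of LIF and JAK-STAT signalling were followed in RNA sequencing of tdTomato-positive cells, which were sorted from the basal telencephalon of mouse embryos at E16 and which the study describes as cells of the preoptic area (POA). The 9 genes were taken by name from the 55573 gene identifiers of the count lists and comprised the ligand *Lif*, the receptor subunits *Lifr*, *Il6st*, *Cntfr* and *Osmr*, the kinases *Jak1* and *Jak2*, the transcription factor *Stat3* and the feedback inhibitor *Socs3*. All 9 passed the filter on low counts, as did 16832 genes in all, but *Lif* and *Osmr* would not have passed it on their WT libraries alone. The wild-type libraries (WT, n = 2) came from embryos with *Hmx3-Cre*, the *tdTomato* reporter and wild-type *Dnmt1*, and the knockout libraries (KO, n = 2) from embryos with the same *Hmx3-Cre* and *tdTomato* alleles and *Dnmt1* with loxP sites around exons 4 and 5. All embryos were on a C57BL/6J background. Cre was driven by *Hmx3*, so that both the reporter and the deletion were limited to cells with a history of *Hmx3* expression, and dead cells were gated out with DAPI. The material was pooled from 12 WT and 6 KO embryos. The labels call the libraries biological replicates and the study describes technical duplicates of pools, so that SDs and p-values measure the spread between libraries, which may be technical.

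LIF belongs to the interleukin-6 family of cytokines, which signal through receptor complexes that share the subunit gp130, the product of *Il6st*. Ligand binding activates JAK kinases, which phosphorylate STAT3, and phosphorylated STAT3 enters the nucleus and induces its targets, among them the inhibitor SOCS3, which closes a negative feedback loop. In the embryonic forebrain, this pathway is known for driving neural progenitors towards astrocytes, and DNA methylation of astrocytic genes is known to limit the response to it before gliogenesis starts. The libraries measured RNA and neither the phosphorylation of STAT3 nor DNA methylation.

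The WT libraries totalled 8951532 and 9995968 counts and the KO libraries 8075102 and 8813520, and 3 counts corresponded to 0.294 to 0.372 CPM (counts relative to the library size after TMM scaling). Intervals of counts and floors cover counting error only. Intervals of log2 fold changes come from the edgeR test and also include the spread between libraries. WT replicate 1 stood apart by 8.66% of its counts on mitochondrial rRNA, against 1.51% to 2.32% in the other libraries. The deleted gene *Dnmt1* had 385 and 447 CPM in WT and 283 and 281 CPM in KO, and its log2 fold change of -0.56 (SE 0.14) just missed the threshold (edgeR adjusted p = 0.0511). *Hmx3*, the driver gene, was detected in all libraries at 71.8 to 93.7 CPM, and *Gad1*, which encodes the GABA-synthesizing enzyme of interneurons, at 127 to 160 CPM. At an edgeR adjusted p under 0.05, 1233 genes were higher in KO (7.33% of those tested) and 96 were lower (0.57%). After a correction of each library for gene length and GC content, these numbers were 1892 and 902. The median log2 fold change over all tested genes was -0.03.

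Of the 9 genes, 3 rose in KO, namely *Lif*, *Lifr* and *Cntfr*, beside 7.33% of all tested genes. None passed the test as lower, beside 0.57% of all tested genes. At an unadjusted edgeR p under 0.05, 4 of the 9 genes were higher and 1 was lower. DESeq2 and limma-voom each called 3 higher and 0 lower. Both KO libraries lay above both WT libraries for 5 of the 9 genes, as for 28.3% of all tested genes, and below them for 1 gene, as for 25.2% of all tested genes. The 3 other genes overlapped between the genotypes. The median log2 fold change over the 9 genes was 0.22. *Lif* was the highest of the 9 at its lower bound too, so that using the bound could not change the median. In bulk libraries, fewer cells of a type and less RNA per cell cannot be told apart.

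The promoters were described from the RefSeq windows on GRCm38.p6, which span 250 bases before to 50 bases after a start site. All 9 genes matched, with 15 windows in all. The STAT letters TTCNNNGAA, which read the same on both strands, occurred in 8.3% of the 32851 windows of all genes and, of the 9 genes, in *Socs3*. A match describes letters and is not a binding site. The number of CG steps, the substrate of DNMT1, had a median of 7 over all windows (quartiles 3 and 20). It was 7 for *Lif*, 53 and 4 for the windows of *Lifr*, 33 for *Il6st*, 3 to 47 for *Cntfr*, 22 for *Osmr*, 29 for *Jak1*, 44 for *Jak2*, 15 for *Stat3* and 31 for *Socs3*. The window of *Lif* thus held the median number and the upstream window of *Lifr* more CG steps than 99.5% of all windows. As an example of a ligand and its receptor that both rose, their 250 bases upstream of the start site are shown with CG steps in capitals, from chr11:4257318-4257567 on the plus strand with 6 CG steps and from chr15:7129322-7129571 on the plus strand with 43. The same stretch of *Socs3*, chr11:117969367-117969616 on the minus strand, is shown for the STAT letters, which are in capitals and begin 154 bases before the start site.
Lif: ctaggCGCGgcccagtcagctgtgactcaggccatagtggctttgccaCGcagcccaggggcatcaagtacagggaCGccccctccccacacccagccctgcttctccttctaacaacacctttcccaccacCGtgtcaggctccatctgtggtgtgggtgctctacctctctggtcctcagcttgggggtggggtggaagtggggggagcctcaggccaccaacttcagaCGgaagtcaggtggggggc
Lifr: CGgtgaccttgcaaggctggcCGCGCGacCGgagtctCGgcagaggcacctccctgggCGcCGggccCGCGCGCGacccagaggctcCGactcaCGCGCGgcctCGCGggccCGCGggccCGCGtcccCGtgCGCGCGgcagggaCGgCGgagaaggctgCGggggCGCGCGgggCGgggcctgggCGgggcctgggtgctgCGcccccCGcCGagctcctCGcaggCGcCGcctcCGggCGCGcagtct
Socs3: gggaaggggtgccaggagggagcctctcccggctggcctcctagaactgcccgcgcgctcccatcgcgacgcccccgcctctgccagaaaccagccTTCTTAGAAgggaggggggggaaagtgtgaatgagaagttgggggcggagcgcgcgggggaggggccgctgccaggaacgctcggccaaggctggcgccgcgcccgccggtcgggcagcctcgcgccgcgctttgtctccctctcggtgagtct

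**Figure D1:**
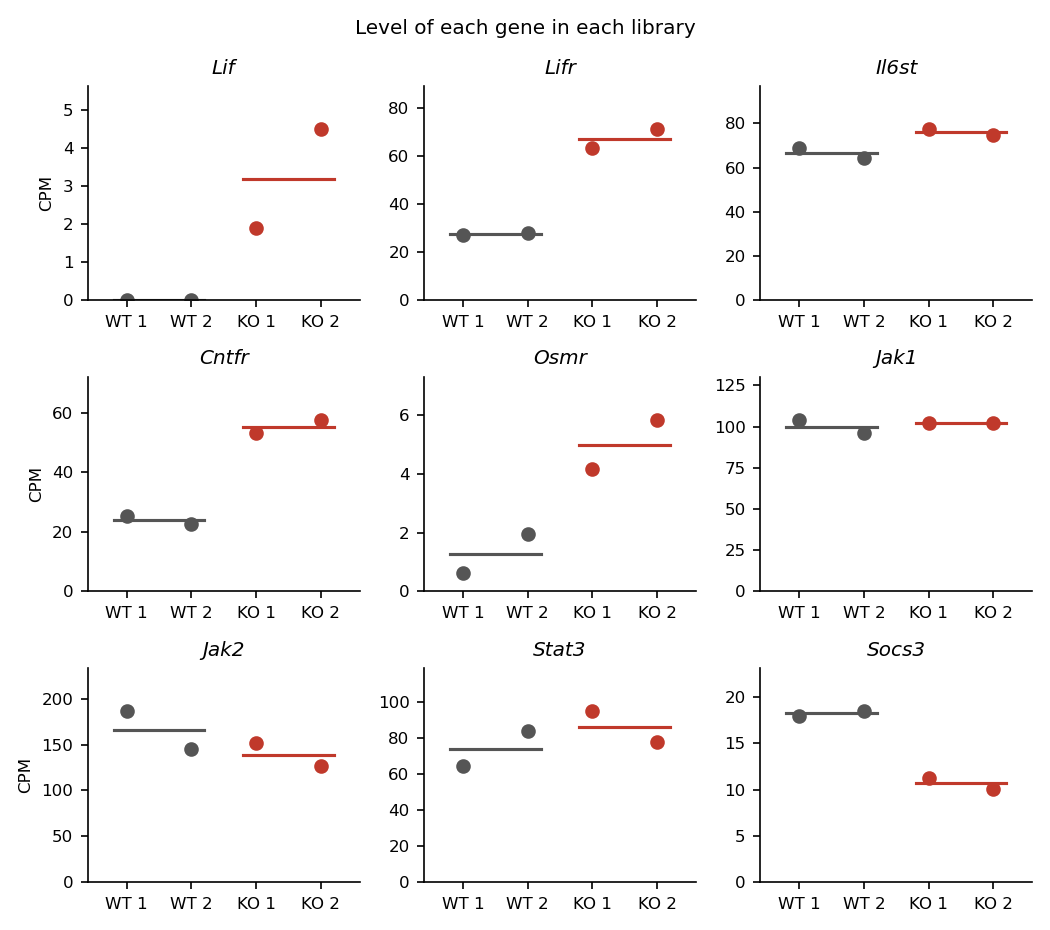
Level of each of the 9 genes in the 2 WT and the 2 KO libraries, in CPM on a linear axis that starts at 0 in each panel; points are libraries and lines are group means. *Lif* is at 0 in both WT libraries, *Lifr* and *Cntfr* lie between 53.1 and 71.3 CPM in KO against 22.7 to 28.0 CPM in WT, and *Jak1*, *Jak2* and *Stat3* overlap between the genotypes.

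The ligand *Lif* lies on the plus strand of chromosome 11 (GRCm38, 4257557 to 4272514), behind the promoter shown above with 6 CG steps. No read was counted on it in either WT library, whereas KO replicate 1 held 16 counts and KO replicate 2 held 41. This equals 1.90 and 4.51 CPM in the KO libraries, with a mean of 3.21 ± 1.85 CPM (SD, n = 2). The genotypes did not overlap, and the KO libraries differed from each other by 2.37-fold. The exact Poisson 95% intervals were 9.15 to 26.0 counts and 29.4 to 55.6 counts in the KO libraries. Genes at 0 in both WT libraries are set against a floor of 3 counts per WT library. On this floor, *Lif* was at least 9.63-fold higher in KO (edgeR adjusted p = 0.0115). Its lower bound was 5.71-fold from KO replicate 1 and 13.6-fold from KO replicate 2. Without KO replicate 2, which had the higher count, the call was lost (edgeR adjusted p = 0.0584). *Lif* was among the genes that the study itself displayed from these libraries, so that its direction is not independent evidence.

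The receptor subunit *Lifr*, which binds LIF together with gp130, rose in KO. Located on the plus strand of chromosome 15 (7090614 to 7197489), it had 27.1 and 28.0 CPM in the WT libraries and 63.1 and 71.3 CPM in the KO libraries. Each KO library exceeded each WT library by 2.25-fold to 2.63-fold. The CG-rich window of *Lifr* shown above belongs to a start site at 7129572, inside the gene as annotated, and its other window, with 4 CG steps, to a start site at 7140542. The mean rose from 27.5 ± 0.680 CPM to 67.2 ± 5.75 CPM (SD, n = 2 each), a difference of 1.29 on the log2 scale (SE 0.16, edgeR adjusted p = 0.00161). Left-out libraries and the 10 other settings gave values between 1.20 and 1.39, all past the threshold.

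*Cntfr* encodes the subunit that binds ciliary neurotrophic factor and is anchored to the membrane without a signalling domain of its own. The gene (chromosome 4, 41657498 to 41697089, minus strand) had 25.2 and 22.7 CPM in WT and 53.1 and 57.6 CPM in KO. All KO values were thus above all WT values, by 2.11-fold to 2.53-fold. The log2 fold change was 1.21 (SE 0.16, edgeR adjusted p = 0.00271), between means of 24.0 ± 1.75 CPM and 55.4 ± 3.15 CPM (SD, n = 2 each). Over left-out libraries and other settings it ranged from 1.11 to 1.32, with every value past the threshold.

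*Il6st* (chromosome 13, 112464070 to 112510086, plus strand) encodes the shared signalling subunit gp130. Its level was 68.8 and 64.4 CPM in WT and 77.5 and 74.9 CPM in KO. The KO libraries lay above the WT libraries by 1.09-fold to 1.20-fold. The log2 fold change of 0.20 (SE 0.14) did not pass the test (edgeR adjusted p = 0.455), and its unadjusted 95% interval of -0.13 to 0.52 lay wholly below the values of *Lifr* and *Cntfr*, although the difference between these genes was not tested.

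*Osmr* (chromosome 15, 6813577 to 6874969, minus strand) encodes the receptor subunit for oncostatin M. The WT libraries held 5 and 20 counts (0.621 and 1.96 CPM) and the KO libraries 35 and 53 (4.16 and 5.84 CPM). The genotypes did not overlap, but the folds of KO over WT libraries spread from 2.12 to 9.40. The log2 fold change was 1.90 (SE 0.57, unadjusted 95% interval 0.58 to 3.23), and it missed the threshold (edgeR adjusted p = 0.0930). *Osmr* was called higher with the library size as the only scaling (adjusted p = 0.0329), without a filter (0.00412), with the length and GC correction (0.0379), and without WT replicate 1 (log2 fold change 1.34, adjusted p = 0.0394) or WT replicate 2 (2.97, adjusted p = 0.000119). It was not called without KO replicate 1 (2.14, adjusted p = 0.0739) or KO replicate 2 (1.65, adjusted p = 0.464). With all 4 libraries, the edgeR, DESeq2 and voom adjusted p of *Osmr* ranged from 0.00412 to 0.0884 over the other settings.

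The kinases were not called in either direction. *Jak1* (chromosome 4, 101152367 to 101265282, minus strand) had 104 and 95.9 CPM in WT and 102.0 and 102.1 CPM in KO. Both KO libraries lay between the WT libraries, at 0.979-fold to 1.06-fold of them, and the log2 fold change was 0.03 (SE 0.14, edgeR adjusted p = 0.931, unadjusted 95% interval -0.30 to 0.36). *Jak2* (chromosome 19, 29251828 to 29313080, plus strand) had 187 and 145 CPM in WT and 152 and 126 CPM in KO. The genotypes overlapped, and the log2 fold change was -0.25 (SE 0.17, edgeR adjusted p = 0.431, unadjusted 95% interval -0.66 to 0.15). Without WT replicate 2, the value of *Jak2* was -0.44 (edgeR adjusted p = 0.014), in a fit where 2029 of 18100 tested genes were higher and 2180 were lower. The other left-out libraries gave -0.07 to -0.38 for *Jak2*, none of them past the threshold.

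The transcription factor *Stat3* (chromosome 11, 100885098 to 100939540, minus strand) had 64.4 and 83.7 CPM in WT and 95 and 77.6 CPM in KO. WT replicate 2 lay above KO replicate 2, so that the genotypes overlapped. The log2 fold change was 0.22 (SE 0.18, edgeR adjusted p = 0.519, unadjusted 95% interval -0.20 to 0.64). It was 0.41 without WT replicate 2 (edgeR adjusted p = 0.0412), in the same fit with 2029 genes higher and 2180 lower, but 0.04 without WT replicate 1 (adjusted p = 0.903), 0.08 without KO replicate 1 (0.969) and 0.36 without KO replicate 2 (0.799). *Stat3* shares 72 exonic bases, 0.756% of its exonic length, with *Stat5a* on the opposite strand, and the strand setting of the counting is not given in the sources used here.

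The feedback inhibitor *Socs3* (chromosome 11, 117966079 to 117970047, minus strand), whose RefSeq window with the STAT letters is shown above and lies inside the gene as annotated by GENCODE, was the only one of the 9 genes with both KO libraries below both WT libraries. The WT libraries held 145 and 189 counts (18 and 18.5 CPM) and the KO libraries 95 and 92 (11.3 and 10.1 CPM). Each KO library reached 0.547-fold to 0.627-fold of a WT library. The log2 fold change of -0.77 (SE 0.23, unadjusted 95% interval -1.295 to -0.24) missed the threshold (edgeR adjusted p = 0.0892). *Socs3* was called lower with the length and GC correction (-0.88, edgeR adjusted p = 0.019) and without WT replicate 1 (-0.80, adjusted p = 0.0133) or WT replicate 2 (-0.76, adjusted p = 0.0245), and over the other settings its adjusted p ranged from 0.00677 to 0.168. Without KO replicate 1 the value was -0.84 (adjusted p = 0.343), and without KO replicate 2 it was -0.69 (adjusted p = 0.616). The fits without a WT library take their spread from the KO pair, which differed less (chi-square per degree of freedom 4.57) than the WT pair (65.4), and this holds for the calls of *Osmr*, *Jak2* and *Stat3* in such fits too.

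The order of the genes was compared per exonic length, as CPM per kb. In WT, *Jak2* was highest with 37.1 and 28.8 and *Jak1* followed with 14.4 and 13.3. *Cntfr* had 9.06 and 8.17 and *Stat3* 6.76 and 8.78, and these neighbours overlapped. *Socs3* (6.23 and 6.41) and *Il6st* (6.2 and 5.80) followed without overlap, although their nearest libraries were almost level. *Lifr* had 2.51 and 2.60, *Osmr* 0.0512 and 0.162, and *Lif* was at 0. In KO, *Cntfr* stood above *Jak1*, with 19.1 and 20.7 against 14.1 in each library, and below *Jak2* with 30.2 and 25.1. *Lifr* reached 5.86 and 6.61, close below *Il6st* with 6.98 and 6.75, whereas *Socs3* stood at 3.91 and 3.50. *Lif* with 0.437 and 1.04 and *Osmr* with 0.344 and 0.482 overlapped at the lower end.

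**Figure D2:**
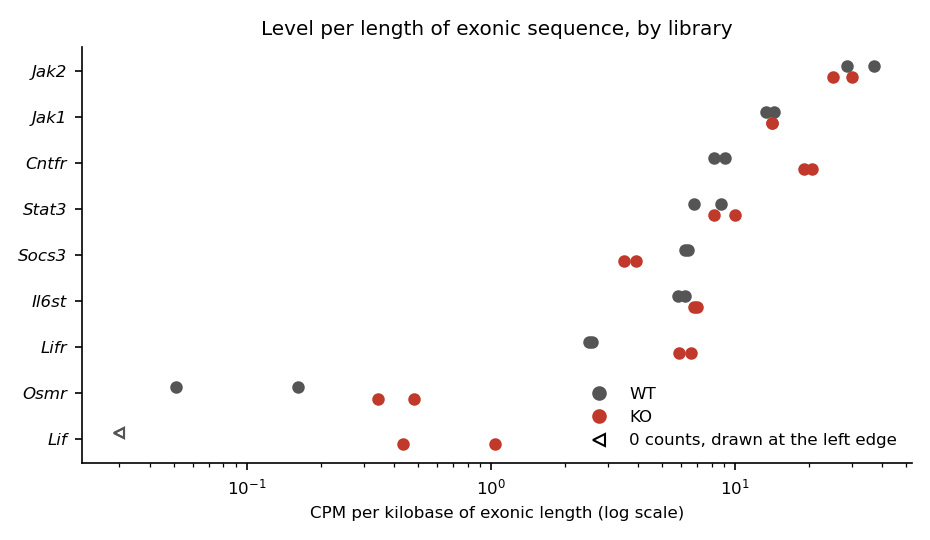
Level of the 9 genes per exonic length, in CPM per kb on a log axis, in each of the 4 libraries; both WT libraries of *Lif* were at 0 and are drawn as an open triangle at the left edge. *Jak2* is highest in both genotypes, from 25.1 to 37.1, and *Cntfr* lies above *Jak1* in both KO libraries and below it in both WT libraries.

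Within a library, the ratio of *Lifr* to *Il6st* per exonic length was 0.405 and 0.448 in WT and 0.839 and 0.980 in KO. The ratio of *Cntfr* to *Il6st* was 1.46 and 1.41 in WT and 2.74 and 3.07 in KO. The ligand-binding subunits therefore stood higher against the shared subunit in both KO libraries, which is a description with no test. The ratio of *Socs3* to *Stat3* was 0.921 and 0.729 in WT and 0.392 and 0.430 in KO, far apart between the genotypes. The ratio of *Jak2* to *Jak1* was 2.57 and 2.17 in WT and 2.14 and 1.78 in KO, where the nearest libraries were almost level.

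The other genes of the pathway were taken from 8 lists with 55 genes, of which 41 passed the filter. Of these 41, 5 were higher in KO and 0 were lower by edgeR, where 13 and 1 had an unadjusted p under 0.05 and DESeq2 called 6 and 0. Over all tested genes, 7.33% were higher and 0.57% lower. The median log2 fold change was 0.17, against -0.03 over all tested genes. Among the other ligands of the family, 7 of 8 were too low to test, and *Il6*, *Osm* and *Clcf1* had 0 counts in all libraries, which allows up to the floors of 0.294 to 0.372 CPM given above. *Cntf*, also too low to test, shares 78.9% of its exonic bases with *Zfp91* on the same strand, so that its counts are uncertain. *Ctf1*, the cardiotrophin gene, was tested and not called (log2 fold change -0.24, edgeR adjusted p = 0.922). *Il11ra1*, the interleukin-11 receptor, was the only other receptor tested, and it was not called (1.07, SE 0.38, edgeR adjusted p = 0.143). It has a near-identical paralogue, so that its counts are uncertain.

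*Stat6*, the STAT factor of interleukin-4 signalling, rose in KO, and like the astrocytic gene *Gfap* it would not have passed the filter on its WT libraries alone. The WT libraries held 6 and 11 counts and the KO libraries 43 and 54, and its log2 fold change was 2.57 (SE 0.47, edgeR adjusted p = 0.0128). Without KO replicate 2 the value was 2.46 and no longer passed (edgeR adjusted p = 0.0736). The 4 other STAT factors tested were not called and had values of 0.23 for *Stat5b* to 1.51 for *Stat5a* (edgeR adjusted p = 0.0698 for the latter). *Jak3* and *Tyk2* were not called, with values of 0.67 and 0.17.

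Among the inhibitors, none of the 6 other SOCS genes tested passed, either by edgeR or at an unadjusted p under 0.05 or by DESeq2, and their log2 fold changes ranged from -0.51 for *Socs6* to 0.39 for *Cish*. Of the 8 PIAS and phosphatase genes, 0 were called by edgeR and DESeq2 and 1 in each direction had an unadjusted p under 0.05, with values from -0.49 for *Ptpn2* to 1.05 for *Ptpn6*. The 10 tested genes that STAT3 is known to induce had a median of 0.04, with 0 called by edgeR and DESeq2 and 2 higher at an unadjusted p under 0.05. They ranged from -0.35 for *Mcl1* to 2.38 for *Cebpb*, which had 6 and 0 counts in WT against 17 and 15 in KO and shares 20.7% of its exonic bases with *Tmem189* on the opposite strand.

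The astrocytic genes of the gliogenic programme rose in 4 of 8 cases, where DESeq2 called 5 higher and 6 had an unadjusted p under 0.05, with a median log2 fold change of 0.91. This stands beside the 7.33% of all tested genes that were higher. *Gfap*, which encodes the intermediate filament of astrocytes and is a known STAT3 target, was at 0 in the WT libraries, whereas the KO libraries held 149 and 198 counts. This is at least 59.3-fold higher (edgeR adjusted p = 0.000121), against the same floor of 3 counts per WT library. *Hes1*, an effector of Notch signalling, rose by 1.55 (SE 0.28, edgeR adjusted p = 0.0127), *Sox9*, a factor of the gliogenic switch, by 0.96 (SE 0.16, adjusted p = 0.00752) and *S100b*, a calcium-binding protein of astrocytes, by 1.40 (SE 0.31, adjusted p = 0.0286). *Hes1* without KO replicate 2 (1.31, adjusted p = 0.0799) and *S100b* without KO replicate 1 (1.17, adjusted p = 0.072) were not called. The other 4 genes were not called, with values from -0.32 for *Nfib* to 0.85 for *Hes5*, of which 31.8% of the exonic bases are shared with a transcript on the opposite strand.

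**Figure D3:**
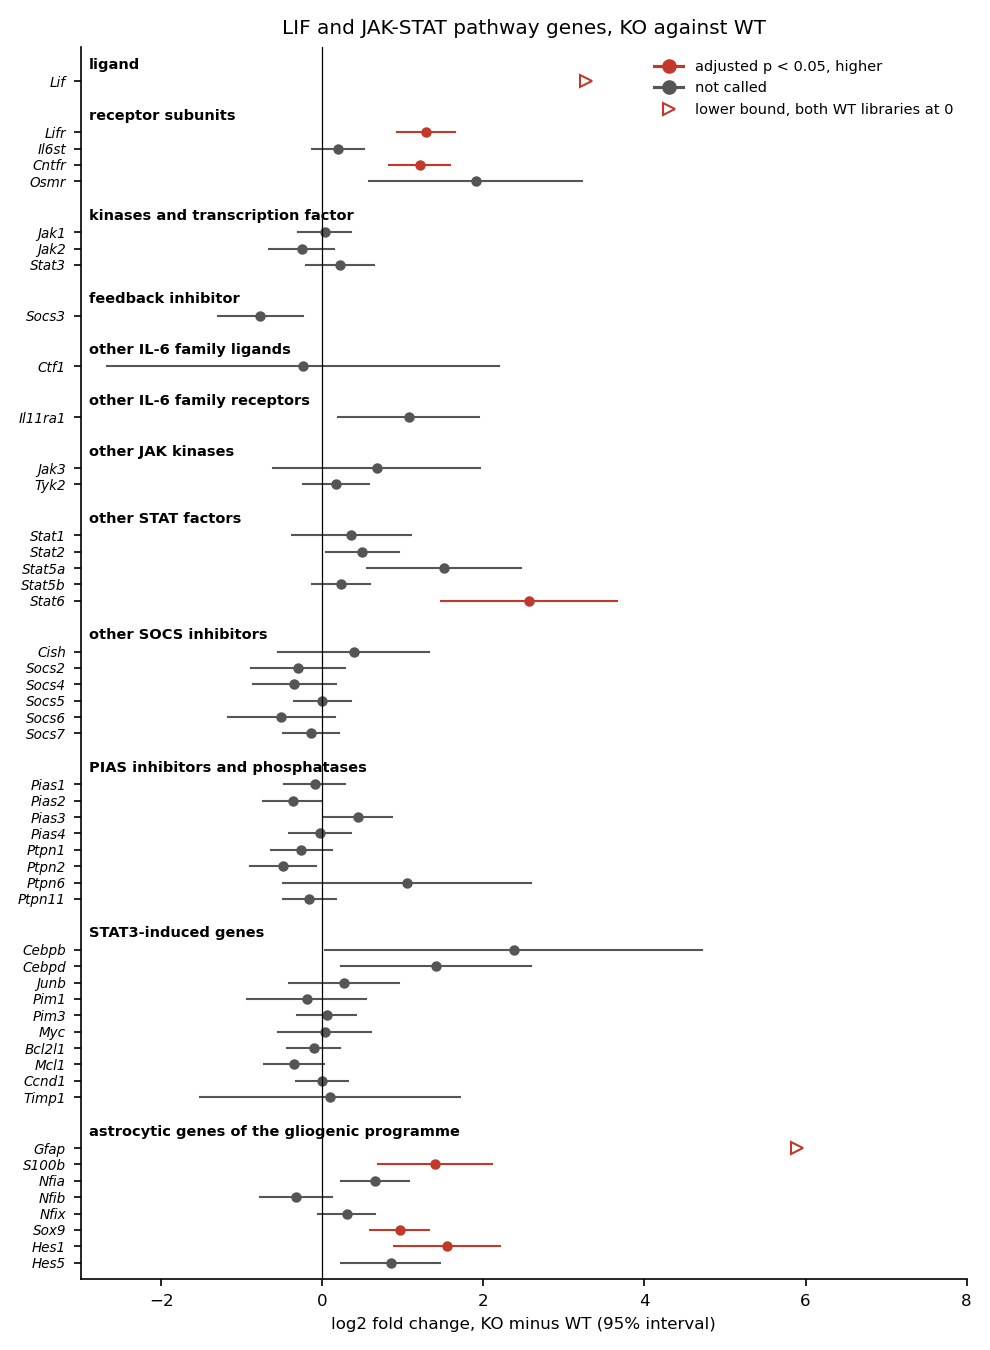
Log2 fold change, KO against WT, of the 9 genes and of the tested genes of the other pathway lists; bars are unadjusted 95% intervals, and red points passed an edgeR adjusted p of 0.05. *Lif* and *Gfap* are drawn as open triangles at their lower bounds of 3.27 and 5.89, since both WT libraries were at 0.

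The KO libraries also differed from the WT libraries in markers of other cell types. All 10 astrocyte markers were higher in KO, with log2 fold changes from 2.96 for *Slc1a3* to 8.16 for *Aqp4* among the 9 with a count in WT, and a summed level of 253 to 263 CPM in WT against 5070 to 5250 CPM in KO. *Slc1a2*, a glutamate transporter of astrocytes, was the most abundant of them, and *Agt* was at 0 in both WT libraries. *Aqp4* had 0 and 4 counts there, so that its fitted value of 8.16 is uncertain. Of the oligodendrocyte markers, 7 of 8 were higher, with sums of 130 to 154 CPM in WT and 560 to 580 CPM in KO. Of the mural cell markers, 6 of 7 were higher, with 58.2 to 63.5 CPM in WT and 360 to 362 CPM in KO. The oligodendrocyte precursor markers rose in 1 of 5 cases (1280 to 1340 CPM against 1630 to 1710 CPM), the microglia markers in 2 of 7 (32.8 to 37.8 CPM against 68.0 to 74.7 CPM) and the radial glia markers in 1 of 6 (1200 to 1300 CPM against 1650 to 1760 CPM). With 7.33% of all tested genes higher, 1 called gene in a list of this length is no result about the list. Of the called markers, *Agt*, *Aqp4*, *Mag*, *Mobp*, *Opalin*, *Acta2* and *Hopx* would not have passed the filter on their WT libraries alone. *Acta2* and *Opalin*, like *Agt*, had 0 counts in both WT libraries. *Acta2* contributed 77.5 and 88.1 CPM to the mural sums in KO. The part of these cell types in the values of *Lif*, *Lifr*, *Cntfr*, *Osmr* and the astrocytic genes was not tested.

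Among the remaining lists, 2 of 8 neuron markers fell, with sums of 5540 to 6100 CPM in WT and 4130 to 4180 CPM in KO. None of the 8 preoptic interneuron markers was called by edgeR or DESeq2, where 2 were lower at an unadjusted p under 0.05, with sums of 1410 to 1520 CPM in WT and 1190 to 1310 CPM in KO. The choroid plexus markers fell in 1 of 3 cases (46.4 to 60.6 CPM against 4.16 to 5.95 CPM), a sum carried by the transthyretin gene *Ttr* (40.8 and 55.3 CPM against 0.951 and 1.101 CPM), and the erythroid markers in 1 of 5 (30.7 to 44.7 CPM against 18.9 to 19.2 CPM). As above, 1 called gene in such a list is no result about the list. The 6 endothelial and 3 fibroblast markers tested were not called by edgeR or DESeq2, where 1 endothelial marker was higher and 2 lower, and 1 fibroblast marker higher, at an unadjusted p under 0.05. Their sums were 21.1 to 26.1 CPM and 31.0 to 40.4 CPM over all libraries. Genes of the dissociation response, several of which are also induced by cytokines, rose in 2 of 8 cases and fell in 2. Over all tested genes, 7.33% were higher and 0.57% lower. The 2 that rose, *Hspa1a* and *Hspa1b*, had 3 to 6 counts in the WT libraries and would not have passed the filter on these alone. The 2 that fell were *Fos* and *Fosb*. The sums of the list were 267 to 275 CPM in WT and 195 to 217 CPM in KO. *Socs3* itself is an early response gene, and the part of dissociation in its value was not tested.

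**Figure D4:**
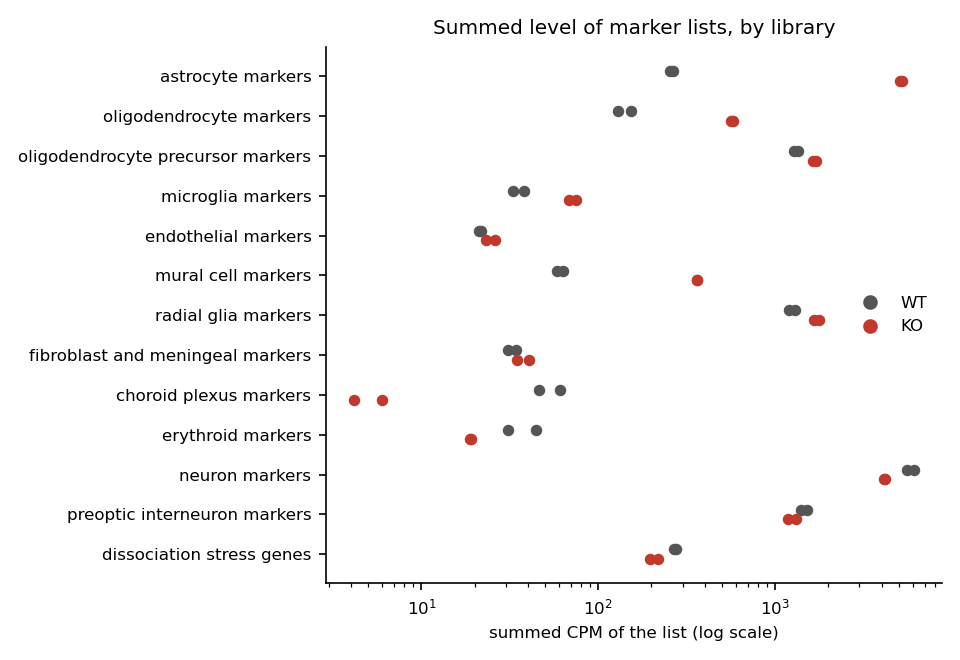
Summed CPM of each marker list in the 4 libraries, on a log axis; points are libraries. The astrocyte list stands at 253 and 263 CPM in WT and at 5070 and 5250 CPM in KO, and the preoptic interneuron list lies between 1190 and 1520 CPM in all libraries.

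**Figure D5:**
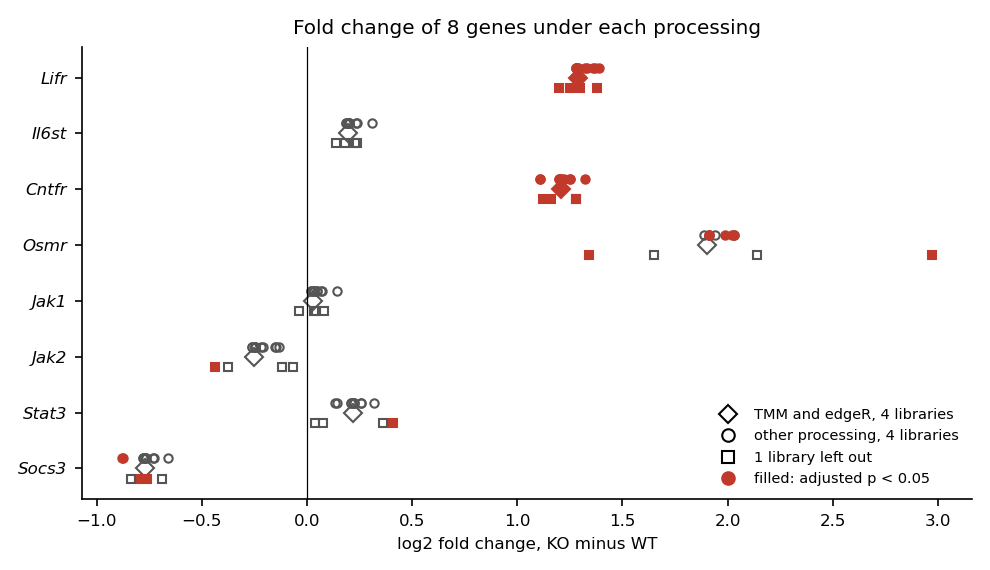
Log2 fold change, KO minus WT, of the 8 genes detected in WT, with diamonds for the values of the text, circles for other processing and squares with 1 library left out; filled red symbols passed an adjusted p of 0.05. *Lifr* and *Cntfr* lie between 1.11 and 1.39 and are filled throughout, whereas *Osmr* and *Socs3* are filled under some settings and open under others.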

How the data were processed

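RNA-seq of 2 WT and 2 KO libraries of sorted tdTomato-positive cells was analysed. Raw counts of reads on Ensembl genes were deposited by the authors without normalization. The submitters' processing notes name CASAVA 1.8.2, STAR 2.5.2a and featureCounts 1.5.0-p1, and the strand setting is not given in the sources used here. Unstranded counting would affect the counts of genes that share exonic bases with a gene on the opposite strand. Genotypes were taken from the sample labels. The 55573 identifiers were matched to GENCODE M21 (55480 matched).

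Genes were filtered with filterByExpr, scaled with TMM and compared with the edgeR quasi-likelihood test (edgeR 4.0.16, R 4.3.3), KO minus WT. Benjamini-Hochberg adjustment ran over 16832 genes, and an adjusted p under 0.05 was called. Standard errors were derived from the test statistic. Levels are CPM on TMM-scaled library sizes, and per exonic length CPM per kb. Where both WT libraries were at 0, folds are bounds against 3 counts per library. Promoter windows came from RefSeq. Procedures were tested on simulated data.

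The 9 genes, the pathway lists and the marker lists were chosen with earlier results of these data known. Named were the 9 genes, every called pathway gene, the extremes of the uncalled ones and the most abundant astrocyte marker, while another is not reported here. Other named list genes (*Slc1a3*, *Ttr*, *Aqp4*, *Agt*, *Mag*, *Mobp*, *Opalin*, *Acta2*, *Hopx*, *Hspa1a*, *Hspa1b*, *Fos*, *Fosb*, *Il6*, *Osm*, *Clcf1*, *Cntf*, *Stat5a*, *Jak3*, *Tyk2*) and the control genes *Dnmt1*, *Hmx3* and *Gad1* were picked with their values known. Alternatives comprised DESeq2 1.42.0, limma-voom (limma 3.58.1), 3 other scalings, 2 other filters, the replicate number as a block, a length and GC correction, both together, and each library left out in turn. Protein sequences and MeDIP data were not analysed here.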

Additional observations from a re-analysis of the deposited data

How the results depend on the processing

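The direction of 8 of the 9 genes was kept under all alternatives, and that of *Jak1* turned without WT replicate 2, with -0.0403 to 0.0819 over the left-out libraries. The calls of *Lifr* and *Cntfr* held under all alternatives, and *Lif* and *Osmr* were not tested with at least 10 counts in every library. The number of the 9 genes called higher was 2 (with *Lif* untested) to 4 over the settings and 2 to 5 with a library left out, and of those called lower 1 with the length and GC correction, 1 with the correction and the replicate block, and 0 to 2 with a library left out. Of the other pathway genes, 8 were higher without a filter, 8 with the correction and 8 with the correction and the block, and 1 was lower with the correction and 2 with the correction and the block, against 3 to 11 higher and 0 to 6 lower with a library left out. Over all genes, 247 were lower with DESeq2, 573 without a filter, 52 with at least 10 counts, 902 with the correction (1892 higher) and 1126 with the correction and the block (2074 higher). With a library left out, 900 to 2578 were higher and 51 to 2180 lower. The share of higher genes among the called was 92.8%, and 75.8% without a filter, 67.7% with the correction, 64.8% with the correction and the block, 66.5% without WT replicate 1 and 48.2% without WT replicate 2. In the fits without a filter and without either WT library, edgeR estimated infinite prior degrees of freedom, so that p-values there used the spread common to all genes.

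The replicate numbers are shared by 2 pairs only and have no other source than the labels. Libraries of the same number deviated together from their genotype means with a correlation of 0.183 across genes. With this number as a replicate block, 1625 genes were higher and 619 lower (72.4% higher), and of the 9 genes it changed the call of *Osmr* alone (log2 fold change 2.02, edgeR adjusted p = 0.0271). A library left out leaves a genotype with 1 library, which is then assumed to vary like the other genotype, although the WT pair differed more than the KO pair. At 5 to 53 counts for *Osmr* and 0 to 41 for *Lif*, counting error limits what these libraries show.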
